A study of Mus musculus with 11 samples.

Results

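The voltage-dependent anion channels Vdac1, Vdac2 and Vdac3 and the translocator protein Tspo were followed in cultured mouse muscle cells. These 4 genes were picked by name, as the rows of the deposited counts table whose Ensembl identifiers map to those symbols. All 4 were among the 15113 genes of the table, and all 4 passed the low-count filter that left 13025 genes for testing. The cells were C2C12, an established line of mouse muscle precursors that can be made to fuse into myotubes, and were labelled as myotubes of an early stage, at passages 2 to 5. The shDRP1 libraries (n = 5) carried a short hairpin RNA named for Drp1, a GTPase that pinches mitochondria apart. The shRandom libraries (n = 6) carried a random hairpin. No source used here names the vector, its promoter or whether a group was a single clone. Each library counts sequence tags from the poly(A) end of transcripts (QuantSeq), so a gene's count is not scaled by its length. Levels are given as CPM, counts scaled to a common library size, after TMM scaling, which corrects library totals for differences in composition.

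VDAC channels are beta-barrel pores of the outer mitochondrial membrane. Through them ADP, ATP, inorganic phosphate, metabolites and calcium pass between the cytosol and the space between the membranes. Hexokinases dock on their cytosolic face, the adenine nucleotide carriers work behind them in the inner membrane, and inositol trisphosphate receptors of the reticulum are tethered to them through the chaperone Hspa9. Tspo is an outer membrane protein that binds cholesterol and porphyrins and has been found beside VDAC channels.

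Library totals ran from 12277622 to 23082617 counts and did not differ between groups beyond their spread (two-sided exact permutation test, p = 0.361). Dnm1l, which encodes Drp1, was at 18.7 ± 2.58 CPM in shDRP1 libraries (SD, n = 5) and 78.6 ± 8.63 CPM in shRandom libraries (SD, n = 6), lower in the libraries labelled as its knockdown. The shDRP1 libraries held far less RNA of myotube markers than the shRandom libraries. Whether their cells had differentiated cannot be told from the labels. All 12 myotube markers were called lower in shDRP1 libraries, and their summed level was 155 to 217 CPM there, against 12536 to 14009 CPM in shRandom libraries. Of 5 myoblast markers, 4 were lower and 1 higher, with a summed level of 170 to 205 CPM in shDRP1 and 891 to 999 CPM in shRandom libraries. Of 5 smooth muscle markers, 4 were measured and all 4 were called higher. Their summed level was 8302 to 10066 CPM in shDRP1 and 2617 to 3159 CPM in shRandom libraries. Most of this sum was Acta2, at 7975 ± 796 CPM in shDRP1 and 2687 ± 226 CPM in shRandom libraries, and Myh11 was not analysed here. Of all tested genes, 33.3% were called lower and 33.9% higher. The part of these marker differences in the results on Vdac1, Vdac2, Vdac3 and Tspo was not tested. In these bulk samples, fewer cells of a type and less RNA per cell cannot be told apart. Whether each library was its own culture is not stated in the labels, and p-values here rest on the spread among libraries, which could be technical.

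Tspo, Vdac3, Vdac1 and Vdac2 all fell in shDRP1 libraries, with fold changes that were largest for Tspo and smallest for Vdac2. All 4 were called lower in shDRP1 libraries at an adjusted p of 0.05 (edgeR quasi-likelihood test), where 33.3% of all 13025 genes were called lower, 33.9% higher and 67.1% in either direction. For Tspo and Vdac3, every shDRP1 library lay below every shRandom library, which held for 25.4% of all genes. For Vdac1 and Vdac2 the groups overlapped.

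Vdac1 is the VDAC isoform best studied as a docking site for hexokinase and as a calcium path. It lies on chromosome 11 of GRCm38 from 52360860 to 52389397 on the plus strand (ENSMUSG00000020402). Vdac1 was at 204, 231, 206, 183 and 184 CPM in shDRP1 replicates 1 to 5, against 219 at the lowest, 283 at the median and 319.9 at the highest in the 6 shRandom libraries. The overlap came from a single library on each side, since shRandom replicate 4 lay below shDRP1 replicate 2 and above the other shDRP1 libraries, of which the highest was at 206 CPM. The shDRP1 mean was 72.1% of the shRandom mean. The log2 fold change of Vdac1 was -0.47 (SE 0.09, adjusted p = 0.00033, edgeR), and 24.4% of all genes had a lower value.

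Of the 4 genes, Vdac1 was matched in the RefSeq promoter sequences used (GRCm38.p6), with the first of its start sites given here, and Vdac2, Vdac3 and Tspo were not matched. The window is shown because it is the stretch in which factors that set the level of this gene could bind, and it covers chr11:52360601-52360900 on the plus strand. Capitals mark an ETS core (CCGGAAG) at bases 146 to 152, an E-box (CANNTG, the kind of site that myogenic factors bind) at bases 171 to 176 and the NRF1 core GCGCANGC at bases 220 to 227, counted from the 5′ end. The matches do not overlap. The other Vdac1 window, chr11:52361347-52361646, is not shown. It held E-boxes at bases 52 to 57 and 58 to 63, and neither the ETS core nor the NRF1 core.
Vdac1 promoter: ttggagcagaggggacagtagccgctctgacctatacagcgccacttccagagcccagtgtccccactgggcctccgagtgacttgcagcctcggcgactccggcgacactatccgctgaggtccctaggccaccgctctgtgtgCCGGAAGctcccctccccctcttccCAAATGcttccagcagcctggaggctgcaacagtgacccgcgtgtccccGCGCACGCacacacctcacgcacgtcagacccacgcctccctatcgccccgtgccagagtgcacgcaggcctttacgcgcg
Among 32851 promoter windows of 300 bases, searched on both strands, 8.86% held the ETS core, 9.95% the NRF1 core and 72.3% an E-box. These are matches of letters and not measured binding sites.

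Vdac2 encodes the isoform that holds the pro-death protein BAK at the outer membrane. It lies on chromosome 14 from 21825238 to 21845879 on the plus strand (ENSMUSG00000021771). Vdac2 was at 217, 247, 224, 209 and 199.7 CPM in shDRP1 replicates 1 to 5, against 230.0 at the lowest, 250.3 at the median and 284 at the highest in the shRandom libraries. Of the 6 shRandom libraries, 3 lay below shDRP1 replicate 2, and the other shDRP1 libraries lay below all of them. The log2 fold change of Vdac2 was -0.20 (SE 0.07, 95% interval -0.35 to -0.05, adjusted p = 0.020, edgeR). This call depended on how libraries were scaled: with library totals alone the value was -0.10 (adjusted p = 0.262) and with upper quartile factors -0.12 (adjusted p = 0.155). It also missed the threshold without shDRP1 replicate 4 (adjusted p = 0.0513) or shDRP1 replicate 5 (adjusted p = 0.0548).

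Vdac3 encodes the remaining VDAC isoform. Its place is chromosome 8, 22577075 to 22593813, minus strand (ENSMUSG00000008892). Vdac3 was at 63.4, 60.4, 55.8, 63.4 and 58.2 CPM in shDRP1 replicates 1 to 5, against 90.2 at the lowest, 111 at the median and 117 at the highest in the shRandom libraries. No library of a group reached the range of the other. The log2 fold change of Vdac3 was -0.83 (SE 0.08, adjusted p = 2.1e-07, edgeR), which left 56.3% of the shRandom mean. Of 20 tested genes within 1 Mb of Vdac3, 5 were lower and 5 higher, with a median log2 fold change of 0.02. Over all tested genes the shares were 33.3% lower and 33.9% higher.

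Tspo lies on chromosome 15 from 83563592 to 83574203 on the plus strand (ENSMUSG00000041736). It was at 191, 193, 198, 209 and 206 CPM in shDRP1 replicates 1 to 5, against 469 at the lowest, 497 at the median and 515 at the highest in the shRandom libraries. The groups were far apart beside their own spread, which was 3.99% of the mean in shDRP1 and 3.74% in shRandom libraries, the smallest of the 4 genes. The log2 fold change of Tspo was -1.31 (SE 0.05, adjusted p = 1.9e-11, edgeR), and shDRP1 libraries kept 40.4% of the shRandom mean. Tspo was the 306th of 13025 genes by mean level in shRandom libraries, with Vdac1 at rank 641, Vdac2 at 717 and Vdac3 at 1879. Macrophage and microglia genes, for which Tspo serves as a marker in other tissues, had a summed level of 9.94 to 17.1 CPM in shDRP1 and 2.55 to 3.48 CPM in shRandom libraries, with 5 of 9 measured. Nearly all of the difference was a single gene, Lyz2, while Csf1r was called lower (log2 fold change -1.03, adjusted p = 0.0029) and Cd68 had a value of -0.39 that was not called. Aif1, too low to be tested, averaged 0.570 CPM in shDRP1 and 0.0745 CPM in shRandom libraries. The part of these genes in the change of Tspo was not tested. Of 16 genes tested within 1 Mb of Tspo, 11 were lower and none higher, with a median of -0.54. Within 5 Mb, 49 of 108 (45.4%) were lower and 20 higher, with a median of -0.13. Over the whole of chromosome 15, 39.5% of 514 tested genes were lower and 29.4% higher. Whether the position of Tspo has a part in its change was not tested. Near Vdac1, 10 of 19 genes within 1 Mb were lower and 2 higher, and near Vdac2, 4 of 10 were lower and 6 higher. Of all tested genes, 33.3% were lower and 33.9% higher.

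**Figure D1:**
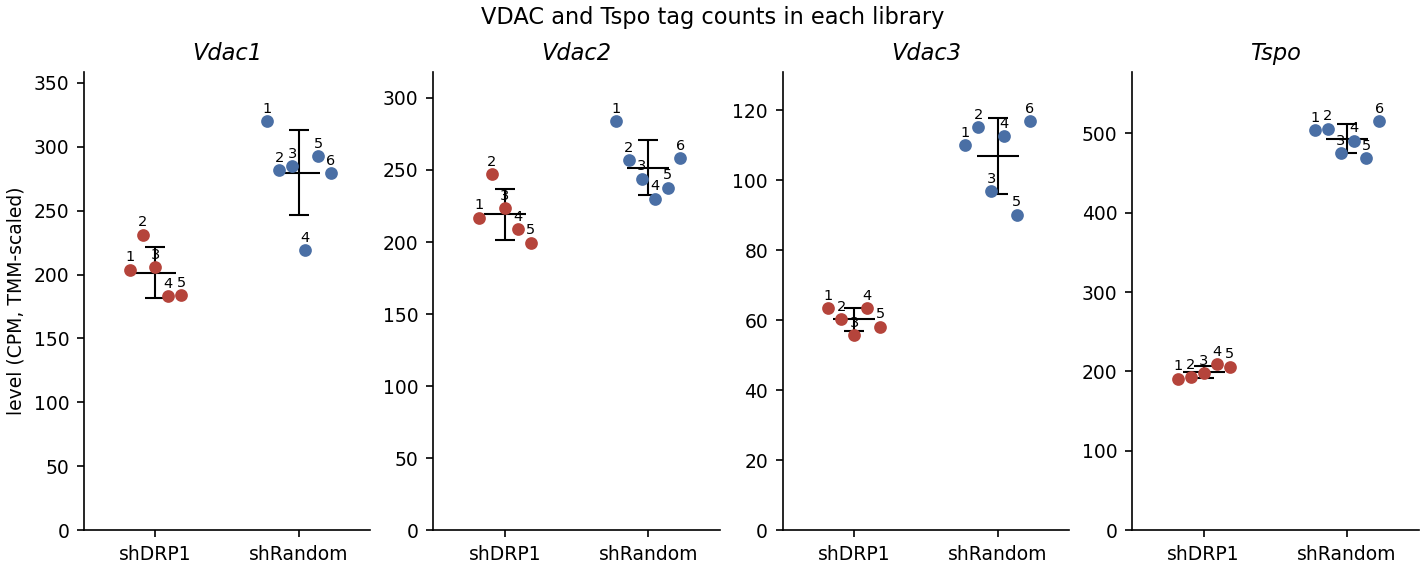
Level of each gene in CPM (y axis, linear from 0) in each shDRP1 library (left) and shRandom library (right). Points are libraries numbered by replicate, and the bar with caps is the mean ± SD. Tspo and Vdac3 show separate ranges, while Vdac1 and Vdac2 overlap through shDRP1 replicate 2.

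Vdac1 and Vdac2 had their highest levels in the same library of each group, shDRP1 replicate 2 and shRandom replicate 1, and both were lowest among shRandom libraries in replicate 4. Vdac3 did not follow them: shRandom replicate 4 was at 112.7 CPM and the lowest was replicate 5. Over all genes, shDRP1 replicate 2 and shRandom replicate 1 lay farthest from the other libraries of their group, with root mean square differences of 0.44 and 0.39 on the log2 scale. They did not stand far apart, since shDRP1 replicate 5 and shRandom replicate 4 were both at 0.37. A fit without both libraries was added after the data were seen. In it the log2 fold changes were -0.49 for Vdac1, -0.22 for Vdac2, -0.83 for Vdac3 and -1.30 for Tspo. The adjusted p-values in edgeR were 0.00011, 0.0063, 8.3e-07 and 1.1e-10. The spread between libraries was larger than counting alone gives: for Vdac1 it was 9.76% of the mean in shDRP1 and 11.9% in shRandom libraries, where counting error accounts for 1.70% and 1.42%.

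The order of the levels differed between the groups. Since each transcript is counted by tags at its end, levels of different genes are set side by side here in CPM per transcript end, without division by length. In shDRP1 libraries Vdac2 averaged 219 ± 17.9, Vdac1 202 ± 19.7, Tspo 199 ± 7.95 and Vdac3 60.2 ± 3.33 CPM (SD, n = 5). In shRandom libraries the order was Tspo at 493 ± 18.4, Vdac1 at 279.6 ± 33.2, Vdac2 at 252 ± 19.1 and Vdac3 at 107 ± 10.9 CPM (SD, n = 6). Vdac1 lay above Vdac2 in 0 of 5 shDRP1 libraries and in 5 of 6 shRandom libraries, the exception being shRandom replicate 4. Tspo lay above Vdac1 in 2 of 5 shDRP1 libraries and in 6 of 6 shRandom libraries, so Tspo and Vdac1 were not separated beyond their spread in shDRP1 libraries. Vdac3 was lowest of the 4 in every library.

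The isoform shares ask whether the VDAC genes changed by the same factor. They are counts of a gene over the counts of all 3 in the same library, so library scaling does not enter. From 6963 to 14496 VDAC counts stood behind each library. The 3 shares and 4 ratios of counts were compared by two-sided exact permutation tests over all 462 assignments of libraries to groups, with Benjamini-Hochberg adjustment over the 7 comparisons. The smallest p this design allows is 0.00216.

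Vdac2 gained share. It made up 44.8%, 45.9%, 46.1%, 45.9% and 45.2% of VDAC counts in shDRP1 replicates 1 to 5, against 38.3% at the lowest, 39.3% at the median and 40.9% at the highest in shRandom libraries. The mean share of Vdac2 was 6.11 percentage points higher in shDRP1 libraries (45.6% ± 0.536, SD, n = 5) than in shRandom libraries (39.4% ± 0.880, SD, n = 6), with exact permutation p = 0.00216 and adjusted p = 0.0051. The ranges did not overlap.

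Vdac3 lost share. It made up 13.1%, 11.2%, 11.5%, 13.9% and 13.2% in shDRP1 replicates 1 to 5, against 14.5% at the lowest, 16.6% at the median and 20.1% at the highest in shRandom libraries. The mean share of Vdac3 fell by 4.25 percentage points, to 12.6% ± 1.17 (SD, n = 5) in shDRP1 libraries, against 16.8% ± 2.06 (SD, n = 6) in shRandom libraries, with exact permutation p = 0.0043 and adjusted p = 0.0061. The gap between the groups was narrow, from 13.9% in shDRP1 replicate 4 to 14.5% in shRandom replicate 5.

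Vdac1 held 41.9% ± 1.04 of VDAC counts in shDRP1 libraries (SD, n = 5) and 43.7% ± 2.83 in shRandom libraries (SD, n = 6). This difference of -1.86 percentage points did not pass (exact permutation p = 0.201, adjusted p = 0.201). The shRandom libraries spread from 39.0% in replicate 4 to 47.1% in replicate 5 and enclosed all shDRP1 libraries. Without shRandom replicate 4 the difference in the Vdac1 share was -2.81 points (exact permutation test, adjusted p = 0.0185).

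**Figure D2:**
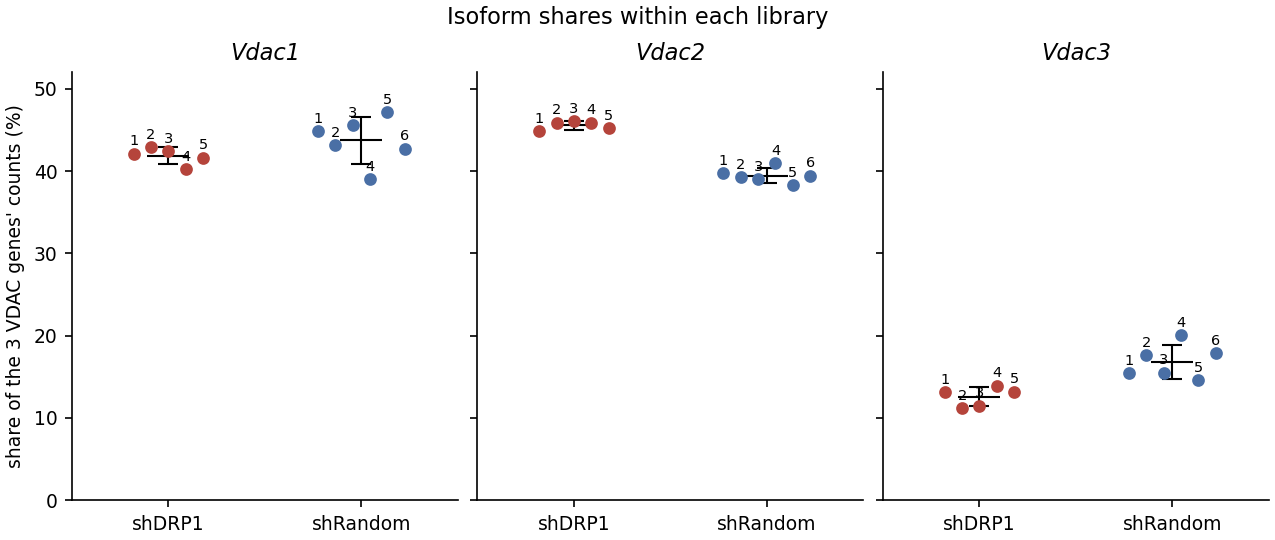
Share of each isoform in the summed Vdac1, Vdac2 and Vdac3 counts (y axis, percent, linear from 0) in each shDRP1 library (left) and shRandom library (right). Points are libraries numbered by replicate, and the bar with caps is the mean ± SD. The Vdac2 shares are all higher in shDRP1, the Vdac3 shares all lower, and the Vdac1 shares overlap.

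Ratios within a library tested the isoforms against each other. The log2 ratio of Vdac1 to Vdac2 averaged -0.12 ± 0.04 in shDRP1 libraries (SD, n = 5) and 0.15 ± 0.13 in shRandom libraries (SD, n = 6), a difference of -0.27 (exact permutation test, adjusted p = 0.0061). For Vdac3 to Vdac2 the log2 ratio averaged -1.86 ± 0.14 in shDRP1 and -1.24 ± 0.15 in shRandom libraries, a difference of -0.62 (exact permutation test, adjusted p = 0.0051). In both ratios the numerator fell further than Vdac2. For Vdac3 to Vdac1 the groups overlapped, at -1.74 ± 0.17 in shDRP1 and -1.38 ± 0.27 in shRandom libraries, a difference of -0.36 that did not pass (exact permutation p = 0.0455, adjusted p = 0.053). It passed without shRandom replicate 5 (-0.42, adjusted p = 0.0278) or shDRP1 replicate 4 (-0.41, adjusted p = 0.0444).

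Summed over the 3 genes, VDAC levels were 484, 538, 485, 455 and 442 CPM in shDRP1 replicates 1 to 5, against 562 at the lowest, 639.8 at the median and 714 at the highest in shRandom libraries. The shDRP1 mean was 75.4% of the shRandom mean. Tspo fell beyond this. The log2 ratio of Tspo to the VDAC sum averaged -1.27 ± 0.16 in shDRP1 libraries (SD, n = 5) and -0.37 ± 0.10 in shRandom libraries (SD, n = 6), a difference of -0.90 with no overlap (exact permutation p = 0.00216, adjusted p = 0.0051).

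Reads of near-identical copies could enter these counts. Of the distinct 50-base windows in the last 500 bases of their annotated transcripts (GENCODE M21), 18.8% for Vdac3, 8.87% for Vdac2, 1.99% for Vdac1 and 0 for Tspo also occur in transcripts of other genes. The labels name read lengths of both 50 and 75 bases, and with windows of 75 bases, added after the data were seen, these shares were 13.2% for Vdac3, 3.32% for Vdac2 and 0 for Vdac1 and Tspo. For Vdac3 the sharing gene with the most windows was the pseudogene Vdac3-ps1. It had 37 counts in all shDRP1 libraries and 101 in all shRandom libraries, against at least 781 counts of Vdac3 in each library. Counts of the other sharing genes were not examined. No source used here says whether reads from shared windows were counted or left out.

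The genes that work with VDAC channels and Tspo held calls in both directions. In 7 lists chosen by role, 89 genes were tested, of which 31 (34.8%) were lower, 24 (27.0%) higher and 34 not called, where 33.3% of all genes were lower and 33.9% higher. Their median log2 fold change was -0.06, and that of all tested genes was 0.03. Among the 89, 1 gene (Hk2) had a lower value than Tspo, 7 than Vdac3, 13 than Vdac1 and 32 than Vdac2.

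In ATP exchange and glucose phosphorylation, 7 of 11 genes were tested, and 1 was lower and 3 higher (median 0.06). Hk2, the insulin-regulated hexokinase that docks on VDAC, was at 37.9 ± 1.11 CPM in shDRP1 and 129 ± 13.4 CPM in shRandom libraries, a log2 fold change of -1.77 (SE 0.08, adjusted p = 3.6e-11, edgeR). Hk1, the widely expressed hexokinase, was at 114 ± 7.61 CPM in shDRP1 and 109 ± 8.72 CPM in shRandom libraries (log2 fold change 0.06, 95% interval -0.08 to 0.21, adjusted p = 0.439). With library totals alone Hk1 was called higher (0.16, adjusted p = 0.0323). Slc25a4, the heart and muscle ATP-ADP carrier of the inner membrane, rose to 959 ± 104 CPM in shDRP1, against 544 ± 59.8 CPM in shRandom libraries (log2 fold change 0.82, adjusted p = 1.3e-06). Its paralog Slc25a5 was at 57.5 ± 16.8 CPM in shDRP1 and 68.4 ± 16.2 CPM in shRandom libraries (adjusted p = 0.270). It was called lower without shDRP1 replicate 2 (log2 fold change -0.44, against -0.25 with all libraries, adjusted p = 0.0367). Ppif, the cyclophilin of the permeability transition, had a log2 fold change of 1.86 and was called higher (edgeR, adjusted p = 3.9e-05). Ppif was low in both groups, at 6.97 CPM in shDRP1 and 1.93 CPM in shRandom libraries. The phosphate carrier Slc25a3 had a log2 fold change of -0.10 (adjusted p = 0.323), whose sign changed when libraries were scaled by their totals alone (0.0040).

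At contacts with the reticulum and in calcium transfer, 11 of 17 genes were lower and 3 higher (median -0.24). The uniporter pore Mcu had a log2 fold change of -1.28 (adjusted p = 8.6e-11), close to that of Tspo. Hspa9, the chaperone that tethers VDAC to the calcium release channels, was at 349.9 ± 27.4 CPM in shDRP1 and 766 ± 41.1 CPM in shRandom libraries, a log2 fold change of -1.13 (adjusted p = 1e-09). The release channels themselves differed: Itpr1 rose by 1.54 (adjusted p = 1.2e-07), while Itpr2 and Itpr3 had values of -0.19 and -0.16 (adjusted p = 0.264 and 0.0955, edgeR). Without shRandom replicate 4, Itpr2 had a value of -0.04 (adjusted p = 0.71). Without shRandom replicate 1, Itpr3 passed (adjusted p = 0.0476).

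Among 17 genes that import and assemble beta-barrel proteins, 6 were lower, 2 higher and 9 not called (median -0.07). Samm50, the core of the machinery that inserts VDAC into the membrane, was at 122 ± 2.84 CPM in shDRP1 and 139.7 ± 6.34 CPM in shRandom libraries (log2 fold change -0.20, adjusted p = 0.0030). This call was lost with library totals alone (adjusted p = 0.096) and with upper quartile factors (adjusted p = 0.0621). The import receptor Tomm20 fell by 0.47 (adjusted p = 0.00018), and the small chaperone Timm10 fell by 1.16 on the log2 scale. The pore Tomm40 had a value of 0.55 with a wide spread (SE 0.28, adjusted p = 0.101), and passed without shRandom replicate 1 (0.71, adjusted p = 0.0396). Without shDRP1 replicate 2 the value of Tomm40 was 0.22 (adjusted p = 0.382), and without both of these libraries it was 0.39 (adjusted p = 0.0562). Tomm40l, its homolog, rose by 0.63. Tomm22, Mtx1 and Mtx2 had values of 0.13, 0.10 and 0.26, none called, and without shRandom replicate 4 those of Tomm22 and Mtx2 were 0.04 and 0.16.

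Of 8 BCL-2 proteins that bind VDAC channels, 6 were higher and 2 lower (median 0.53). The pro-death genes Bak1, Bax and Bid rose by 0.41, 0.66 and 1.05 on the log2 scale (adjusted p = 0.0013, 0.0048 and 0.011, edgeR), with overlap between the groups. Bad and Bcl2l11, also pro-death genes and added after their values were seen, rose without overlap. Their log2 fold changes were 0.66 and 0.88 (adjusted p = 1.9e-06 and 1.1e-07, edgeR). The survival gene Mcl1 fell by 0.45 (adjusted p = 4.1e-06) without overlap. Bcl2, also a survival gene and added after its values were seen, went the other way. It rose by 0.29 (adjusted p = 0.0072, edgeR), with overlap between the groups. Bcl2l1, another survival gene, had a value of -0.29 (adjusted p = 0.037), a call that many alternatives lost, among them library totals alone (adjusted p = 0.135), upper quartile factors (0.129) and leaving out shDRP1 replicate 1 (0.0967), 2 (0.079) or 5 (0.0586) or shRandom replicate 2 (0.083), 4 (0.0831) or 6 (0.0734).

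For Tspo, 5 of 9 genes of its ligands and of cholesterol transfer were tested, with 1 lower and 2 higher (median -0.12). Dbi, the acyl-CoA binding protein that is the natural TSPO ligand, was at 689 ± 21.7 CPM in shDRP1 and 830.0 ± 17.2 CPM in shRandom libraries (log2 fold change -0.27, adjusted p = 0.00015, and -0.17 with library totals alone). Stard3, a cholesterol transfer protein of endosomes, rose by 0.99 (adjusted p = 6e-07), and the adaptor Acbd3 had a value of -0.12 (adjusted p = 0.269). Steroid synthesis was barely seen: Star was at 0.378 CPM in shDRP1 and 0.383 CPM in shRandom libraries, below the filter. Of the list of 5 steroidogenic cell markers, 2 were measured, and their summed level was 0.155 to 0.541 CPM in shDRP1 and 0.318 to 1.13 CPM in shRandom libraries.

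Of 15 genes of haem synthesis and breakdown, 14 were tested, and 3 were lower and 4 higher (median 0.12). Alas1, which sets the rate of haem synthesis outside red cells, was at 33.0 ± 4.03 CPM in shDRP1 and 31.2 ± 2.15 CPM in shRandom libraries (log2 fold change 0.08, adjusted p = 0.407, and 0.00069 without shDRP1 replicate 2). Alad, the next enzyme, rose by 0.65 (adjusted p = 3e-07), and Fech, which inserts the iron, rose by 0.18 (adjusted p = 0.0084, and by 0.28 with library totals alone). The mitochondrial carrier Slc25a39 fell by 0.76 (adjusted p = 1.4e-06) and Hmox1, which breaks haem down, fell by 0.40 (adjusted p = 0.012, edgeR).

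Among 21 other proteins of the outer membrane, 7 were lower, 4 higher and 10 not called (median -0.04). None of the 21 had a log2 fold change below that of Tspo, and 1, Mief2 at -1.04 (adjusted p = 2.1e-05), was below Vdac3. Cpt1a, the carnitine transferase of the outer membrane, rose by 0.64 (adjusted p = 2.2e-06, edgeR).

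**Figure D3:**
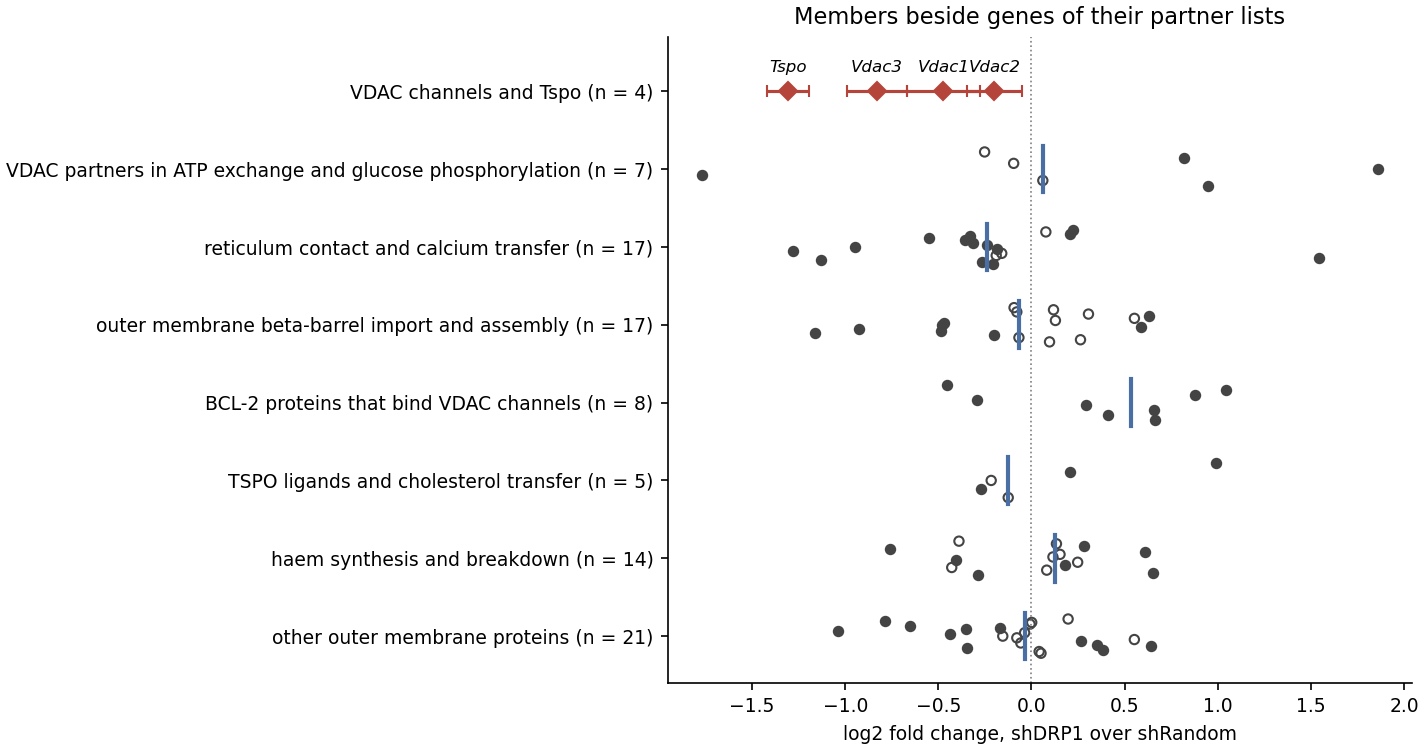
Log2 fold change, shDRP1 over shRandom (x axis), of the 4 genes in the top row with 95% intervals, and of each tested gene of the 7 partner lists below. Filled points passed an adjusted p of 0.05 in edgeR, open points did not, and the blue bar is the list's median. The 4 genes all lie below 0, while list medians run from -0.24 to 0.53.

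The genes closest in pattern were found by the root mean square difference of log2 CPM over the 11 libraries, each gene centred on its own mean, among 8121 other genes with at least 10 CPM on average, without predicted genes and pseudogenes. For Tspo they were Mcu (0.05), the translation repressor Eif4ebp1 (0.06) and Fam192a (0.06). For Vdac3 they were the scaffold gene Gipc1 (0.07), the complex I subunit Ndufs7 (0.07) and the chaperone Dnajb1 (0.08). For Vdac1 they were the proteasome gene Psmd8 (0.06), Smim11 (0.06) and the mitochondrial ribosome gene Mrps2 (0.06), and for Vdac2 they were Srek1ip1 (0.03), the ubiquitin-conjugating enzyme Ube2d3 (0.04) and Otud5 (0.05). No member was among the 3 genes closest to another. Vdac2 was 351st in closeness to Vdac1 (0.16), Vdac3 was 2079th (0.27) and Tspo 5249th (0.45). The median of the genes compared with Vdac1 was 0.37. In closeness to Tspo, Vdac3 was 486th (0.26), Vdac1 1511th (0.45) and Vdac2 2592nd (0.56), where the median was 0.69. These differences span both groups, so they include the fold change of each gene.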

How the data were processed

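The deposited raw table holds unnormalized counts of tags for 15113 genes in 11 libraries. A second table deposited by the authors holds a signal, which its values show to be those counts over a size factor for each library, and served only to check their scaling. Per the labels' protocols, RNA was primed from oligo-dT and amplified by PCR, so expected counting errors cover counting alone. The 95% intervals of fold changes rest on the spread among libraries. BlueBee was used for alignment, per the design text. Per the submitters' processing notes, GRCm38, mm10 and DESeq2 version 1.22.2 were named. No source used here names the aligner, counter, strand setting or annotation release, so a gene cannot be separated from one that overlaps it or lies antisense. Symbols came from a reference table matched by identifier (15080 matched, 33 did not) and positions from GENCODE M21.

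Counts were filtered with filterByExpr, scaled by TMM and tested in R version 4.3.3 with edgeR version 4.0.16 (robust quasi-likelihood, group as the only term, Benjamini-Hochberg over all 13025 genes, threshold 0.05). The F statistic of each fold change gave its standard error. Group labels came from sample titles. The edgeR fit was tested on simulated counts, and the other steps were not. Far fewer genes were changed in the simulation than were called in the data. It therefore did not test the scaling of libraries under changes this wide. No pair of libraries was a repeat of the same library (chi-square per degree of freedom from 5.30 to 61.6). Alternatives were other scalings and filters, DESeq2 version 1.42.0, limma-voom version 3.58.1, a replicate block, a threshold of 0.01, group medians, summed counts and leaving out libraries. Members, lists and the rule for named genes (fixed partners by role, the largest rise and fall of each list, and the 3 genes closest in pattern to each member) were chosen with earlier results of these data known. A gene among the partners is not reported here.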

Additional observations from a re-analysis of the deposited data

Results flagged for a closer look

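Of 118 groups of values examined (59 genes, shares and ratios in both groups), 6 held a library far from the others of its group, and chance alone gives about 1 in 20. Among the members, the log2 ratio of Vdac1 to Vdac2 was -0.19 in shDRP1 replicate 4, against -0.12 to -0.09 in the other shDRP1 libraries. Among the other genes, Eif4ebp1 was at 284 CPM in shDRP1 replicate 3 (others 307 to 313) and Tomm40l at 25.9 CPM in shDRP1 replicate 2 (others 21.99 to 23.03). Itpr2 was at 81.5 CPM in shRandom replicate 4 (others 45.6 to 56.4), Mtx2 at 11.9 CPM in the same library (others 18.7 to 21.5), and Alad at 58.8 CPM in shRandom replicate 6 (others 49.3 to 52.8). What sets these libraries apart was not tested.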

How the results depend on the processing

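Vdac1, Vdac3 and Tspo kept their direction and call under all 21 alternatives, which include the fit without both libraries added after the data were seen. Their log2 fold changes ran from -0.54 to -0.37, -0.88 to -0.73 and -1.33 to -1.21. Vdac2 kept its direction under all 21 and its call under 16. It lost the call with a threshold of 0.01 (-0.20, adjusted p = 0.020), library totals alone (-0.10) and upper quartile factors (-0.12). The call was also lost without shDRP1 replicate 4 (edgeR, adjusted p = 0.0513) or shDRP1 replicate 5 (0.0548). Over the fits that leave out 1 library each, Vdac2 ran from -0.25 to -0.17. Library totals alone and upper quartile factors raised the median of all genes, by 0.10 and 0.08. With group medians in place of means, the differences of the Vdac3 share (-3.46 points, adjusted p = 0.0848), the Vdac1 to Vdac2 ratio (-0.27, 0.0758) and the Vdac3 to Vdac2 ratio (-0.54, 0.0848) no longer passed. Leaving out 1 library each, the Vdac1 share differed by -2.81 to -1.18 points and the Vdac3 to Vdac1 ratio by -0.42 to -0.27, and each passed in some of these. Among partner genes, Slc25a3 changed sign with library totals alone (0.0040). The cause of these changes was not tested. Replicate numbers showed little sign of pairing the libraries: correlations of same-numbered deviations ran from -0.18 to 0.36, and 1 of 5 numbers matched best. The labels do not say what the numbers mean, and weak correlations cannot exclude a shared culture or run. With the replicate block 7937 genes were called in place of 8745, Vdac2 had an adjusted p of 0.0476, and the calls of Bcl2l1, Fech and Ube2d3 were lost. No call of the 4 members changed with this block. Counts that moved by over 1.5 times were small: BCL-2 genes called lower (1 in place of 2), TSPO ligand and cholesterol genes called higher (1 in place of 2) or lower (2 in place of 1), ATP exchange genes called lower (2 in place of 1) and haem genes called lower (1 to 5 in place of 3).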

Other observations

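Of the macrophage and microglia genes, Ptprc, Adgre1, C1qa and C1qb were not analysed here. In shDRP1 libraries most of the summed level was Lyz2, at 10.9 ± 2.88 CPM in shDRP1 (SD, n = 5) and 0.590 ± 0.212 CPM in shRandom libraries (SD, n = 6), chosen after its values were seen. Csf1r was at 0.651 CPM in shDRP1 and 1.33 CPM in shRandom libraries. Itgam was at 0 in all shDRP1 libraries and averaged 0.0687 CPM in shRandom libraries. Aif1 went the other way, at 0.387 to 0.698 CPM in shDRP1 and 0 to 0.206 CPM in shRandom libraries. Both Itgam and Aif1 were below the low-count filter and were not tested. Of 5 endothelial markers 1 was measured, at 0.0773 to 0.567 CPM in shDRP1 and 0 to 0.318 CPM in shRandom libraries. Of 6 adipocyte markers 2 were measured, and their sum was 2.27 to 5.03 CPM in shDRP1 and 0.580 to 1.57 CPM in shRandom libraries.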
